A study of Mus musculus with 4 samples.

Results

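Ionotropic receptors for GABA and glycine carry the fast inhibition of retinal neurons, and 7 of their subunit genes are described here: Gabrr1, Gabrr2 and Gabrr3, which code for the rho1, rho2 and rho3 subunits of the GABA-C receptor, and Glra1, Glra2, Glra3 and Glrb, which code for the alpha1, alpha2, alpha3 and beta subunits of the glycine receptor. They were taken by gene symbol from the 32285 genes of the count matrices, without regard to their values, and all 7 were found. The matrices come from droplet-based single-cell RNA sequencing (10x Genomics) of retinas of mice aged 30 days, with 2 wild-type mice (WT) and 2 NLGF mice. The labels give the NLGF genotype by name only. NLGF is the usual name of a knock-in line of the amyloid precursor protein gene App, which carries the Swedish, Beyreuther/Iberian and Arctic mutations of familial Alzheimer's disease under the gene's own promoter, in every cell that uses it. Each genotype is represented by 1 female and 1 male retina, and each retina is 1 library.

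GABA-C receptors open a chloride channel on binding GABA and close slowly, and in the retina they are best known from the axon terminals of bipolar cells, where amacrine cells inhibit the release of glutamate. These subunits assemble with each other rather than with the alpha, beta and gamma subunits of GABA-A receptors. Glycine receptors are pentamers of alpha and beta subunits, in which the alpha subunit sets the kinetics and the beta subunit binds gephyrin and so holds the receptor at the synapse. Rod bipolar and ON cone bipolar cells depolarise when light rises, OFF cone bipolar cells when it falls, and amacrine cells, which release either GABA or glycine, act on all of them.

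The genes lie on 6 chromosomes, and Gabrr2 and Gabrr1 are neighbours. On GRCm38, with GENCODE M21 annotation, Gabrr2 (ENSMUSG00000023267) spans chr4:33062999-33095865 and Gabrr1 (ENSMUSG00000028280) chr4:33132521-33163588, both on the plus strand, with 36655 bases and 0 annotated genes between them. Gabrr3 (ENSMUSG00000074991) lies at chr16:59407332-59464504 on the plus strand. Glra1 (ENSMUSG00000000263) lies at chr11:55514238-55608198 on the minus strand, Glra2 (ENSMUSG00000018589) at chrX:165129017-165327393 on the minus strand, Glra3 (ENSMUSG00000038257) at chr8:55940460-56130070 on the plus strand and Glrb (ENSMUSG00000028020) at chr3:80843599-80913660 on the minus strand. All are protein-coding. An antisense gene (Gm12236) and a processed pseudogene (Gm12237) overlap Glra1 on the opposite strand, 2 processed pseudogenes (Gm7351 and Gm45366) overlap Glra3 and a lincRNA (1700022E09Rik) overlaps Gabrr3, so reads could be shared there unless the counting used strand, which the sources used here do not give.

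The sequences upstream of the 3 rho genes are shown because these genes were high in the same class of cells while Gabrr2 and Gabrr3 were high in different bipolar clusters (values below). Each runs 5′ to 3′ on the plus strand (RefSeq promoter table, GRCm38.p6) and ends 1 base before the earlier of the RefSeq and GENCODE starts, at chr4:33132306-33132520 for Gabrr1, chr4:33062862-33062998 for Gabrr2 and chr16:59407132-59407331 for Gabrr3. Capitals mark, on either strand, TAATCC (the core bound by the homeodomain factors OTX2 and CRX), CANNTG (the E-box of basic helix-loop-helix factors) and TAATTA (a core of many other homeodomain factors).
Gabrr1: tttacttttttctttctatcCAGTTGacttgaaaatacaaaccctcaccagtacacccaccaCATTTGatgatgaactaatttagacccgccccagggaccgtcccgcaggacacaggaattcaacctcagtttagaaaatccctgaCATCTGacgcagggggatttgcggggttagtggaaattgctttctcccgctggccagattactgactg
Gabrr2: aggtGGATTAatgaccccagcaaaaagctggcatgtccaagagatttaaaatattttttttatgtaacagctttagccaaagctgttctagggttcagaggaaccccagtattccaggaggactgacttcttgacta
Gabrr3: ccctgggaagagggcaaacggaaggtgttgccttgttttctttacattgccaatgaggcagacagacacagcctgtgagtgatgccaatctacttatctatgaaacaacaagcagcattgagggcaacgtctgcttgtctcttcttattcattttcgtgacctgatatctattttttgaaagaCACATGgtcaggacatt

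TAATCC was found once, in the Gabrr2 window, read there as its reverse complement and beginning 133 bases before the start. In the same stretch of all 32851 promoters of the table, 3.63% held it. CANNTG was found 3 times upstream of Gabrr1, where 61.4% of promoters held it, once upstream of Gabrr3 (59% of promoters) and not upstream of Gabrr2 (46.1%). TAATTA was found in none of the 3 windows, against 4.47%, 2.98% and 4.19% of promoters in the windows of Gabrr1, Gabrr2 and Gabrr3. These matches describe letters and not binding.

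The libraries held 19128388 to 23473092 UMIs. After filters and removal of likely doublets 31329 cells remained, 7155 to 8118 in each library, with 17 to 34 cell barcodes shared between any 2 libraries. Cells fell into 44 clusters that were named by marker genes, so every class name below means a class that resembles the named one by its markers (rod bipolar-like and so on). The member genes took no part in the clustering. Rods made up 80.2% of the cells. The inner retinal classes held 703 rod bipolar, 908 ON cone bipolar, 611 OFF cone bipolar, 207 GABAergic amacrine, 511 glycinergic amacrine, 54 horizontal and 25 retinal ganglion cells, beside 634 Müller glia. Horizontal and retinal ganglion cells had under 10 cells in some library and are given without a comparison of genotypes, and 1711 cells in clusters with shallow or mixed markers were left unnamed. Levels are CPM values, in which the UMIs of a gene (unique molecular identifiers, each standing for 1 captured transcript) are scaled to a common total of UMIs of the class in 1 library. UMIs of different genes are captured with different efficiency, so a gene is compared between cells and not with another gene.

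The rho subunits were concentrated in bipolar cells. In rod bipolar cells Gabrr1 reached 401 CPM in the female and 388 CPM in the male WT library, and 396 and 404 CPM in the female and male NLGF library, which is the order of all values given by library. In OFF cone bipolar cells the libraries had 297, 295, 343 and 344 CPM, and in ON cone bipolar cells 260, 271, 291 and 280 CPM. The 4 libraries of each bipolar class lay apart from those of the next, in the order rod, OFF cone and ON cone bipolar. The next class, horizontal cells, had 17.6 ± 9.04 CPM (SD, n = 4), from 28 UMIs. Gabrr1 UMIs were found in 93.1% of rod bipolar, 80.2% of OFF cone bipolar and 76.9% of ON cone bipolar cells. With each cell thinned to 1000 UMIs the shares were 34.2%, 22.5% and 23.4% of 699, 610 and 899 cells, so the order of the cone bipolar classes was not the same on this scale.

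Gabrr2 had another order among the same cells. It stood at 341, 412, 394 and 367 CPM in ON cone bipolar cells, at 236, 244, 278 and 269 CPM in rod bipolar cells and at 174, 192, 181 and 210 CPM in OFF cone bipolar cells. The ranges of these 3 classes did not overlap. Of all Gabrr2 UMIs, 43.6% came from ON cone bipolar cells (41.4% to 45.3% over the libraries).

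Gabrr3 marked cone bipolar cells and was near 0 in rod bipolar cells. The ON cone bipolar class had 152, 121, 144 and 180 CPM and the OFF cone bipolar class 120, 104, 124 and 140 CPM, with ranges that overlapped. The ON levels rest on 2 clusters of less certain class, and the OFF levels in part on 1, described with the clusters. In 703 rod bipolar cells there were 3 Gabrr3 UMIs in all, 1 in each of 3 libraries and 0 in the NLGF male, where 3 counts would be 1.94 CPM.

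**Figure D1:**
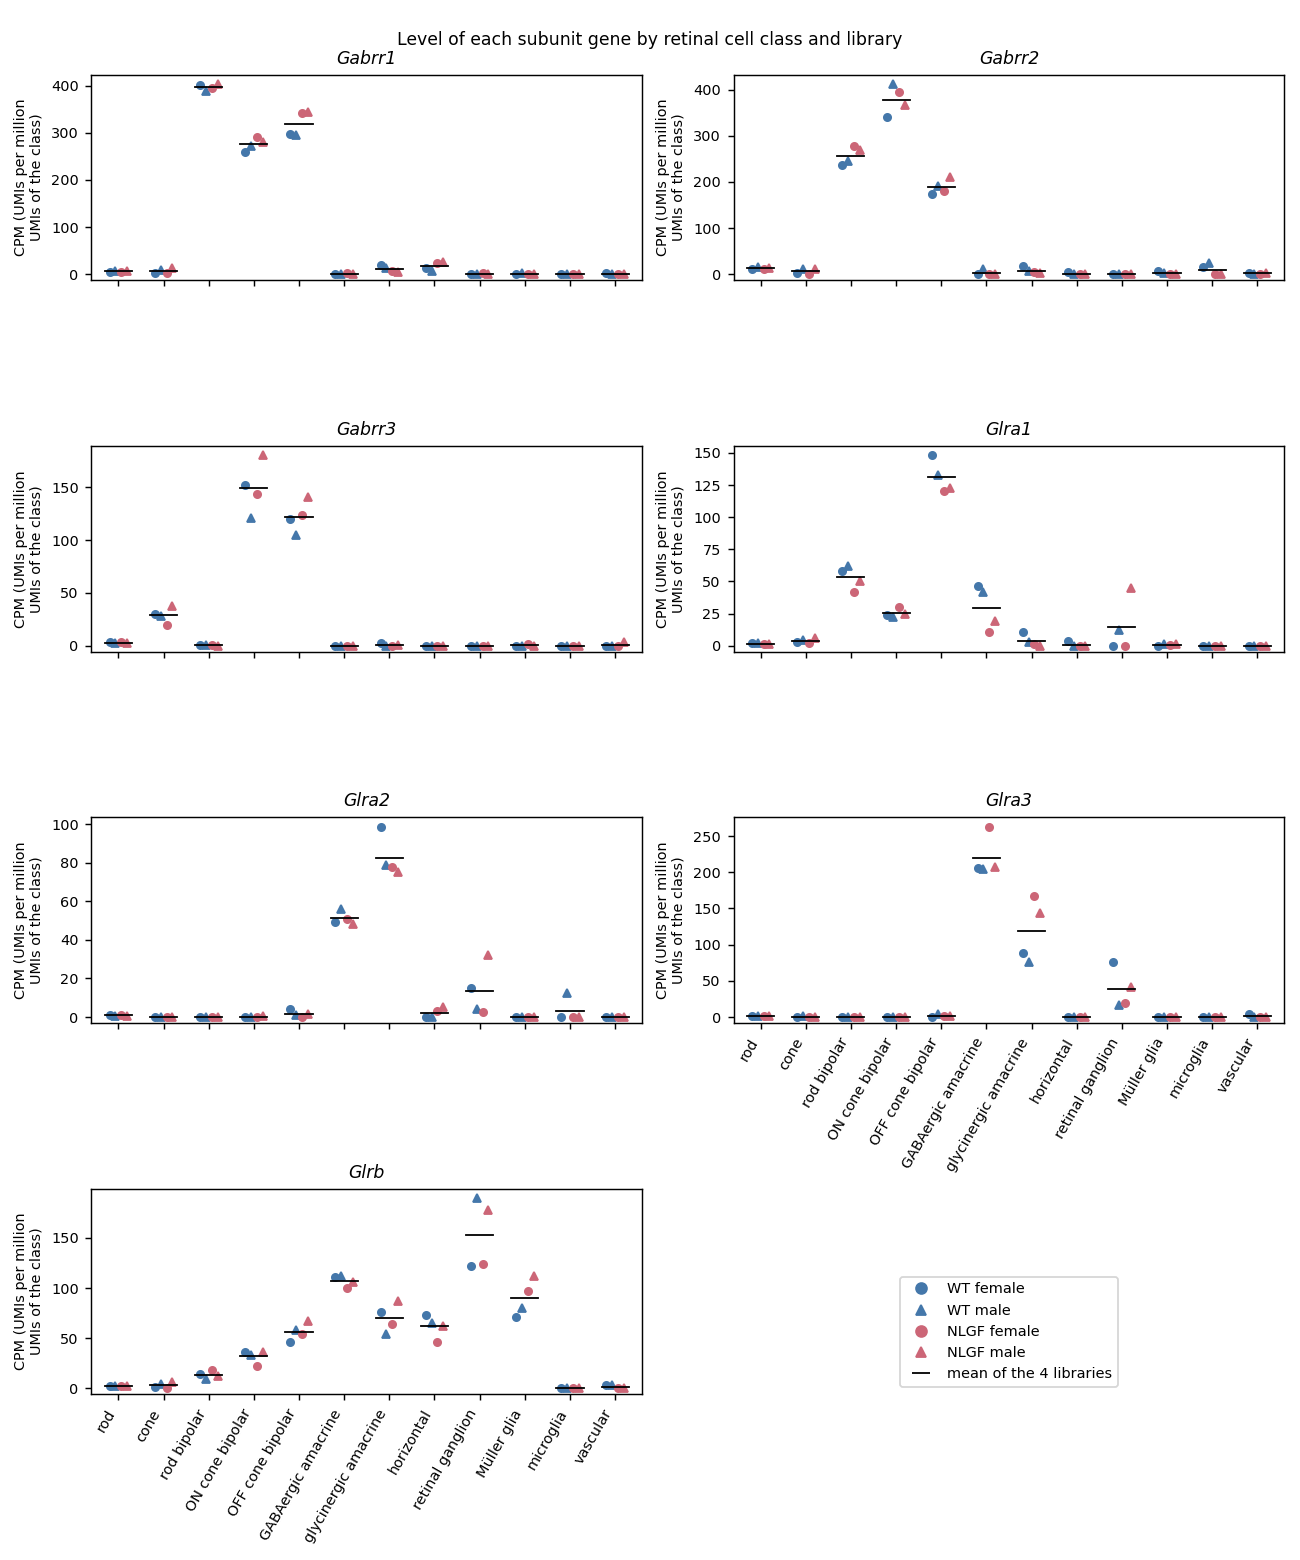
Level of each of the 7 subunit genes (vertical axis, CPM, linear, one scale per gene) in 12 cell classes (horizontal axis); each point is 1 library (blue WT, red NLGF, circle female, triangle male) and the bar is the mean of the 4 libraries. The rho genes stand out in the bipolar classes and Glra2 and Glra3 in the amacrine classes. Glrb spreads over amacrine, cone bipolar, horizontal and retinal ganglion cells and Müller glia. Horizontal and retinal ganglion points rest on 54 and 25 cells.

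Within the cone bipolar cells Gabrr2 and Gabrr3 were high in different clusters, while Gabrr1 was present in each. The ON cluster led by Hs3st4 and Sox6 had 681 CPM of Gabrr2 and 6.27 CPM of Gabrr3, and the ON cluster led by Igfn1 and Vsx1 had 692 and 16.5 CPM. The cluster led by Areg and Slitrk5 showed the opposite, with 16.9 CPM of Gabrr2 and 522.5 CPM of Gabrr3, and so did the cluster led by Adarb2 and Ddit4l, with 43.2 and 273.8 CPM. Gabrr1 had 283, 245, 244 and 283 CPM in these 4 clusters.

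The class of the Areg and Adarb2 clusters was less certain than that of most others. Both were called ON cone bipolar because Isl1 was above Grik1 and the markers found in rod bipolar cells alone were below the limit set (mean z-scores of 0.734 and 0.385, against 1.67 to 1.70 in the rod bipolar clusters), but their best marker list was that of rod bipolar cells. They held 254 of the 908 ON cone bipolar cells and 705 of the 964 Gabrr3 UMIs of the class. Without them, an alternative chosen after the values were seen, Gabrr3 in ON cone bipolar cells was at 53.5, 47.5, 51.5 and 71.8 CPM, below every OFF cone bipolar library, and Gabrr2 at 485, 543, 549 and 501 CPM. Gabrr1 was then at 279 ± 16.3 CPM and Glra1 at 7.17 ± 2.94 CPM (SD, n = 4). In the 3 clusters with rod bipolar markers past the limit, Gabrr3 had 0.313 to 1.90 CPM. The class of the OFF cluster led by Otor and Nnat was uncertain too. Its best marker list was that of Müller glia (mean z-score 0.626), and its mean z-score for markers of OFF and not ON cells was -0.159. It held 139 of the 611 OFF cone bipolar cells and 195 of the 666 Gabrr3 UMIs of that class. OFF levels without it were not computed.

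The OFF clusters showed the same spread. The cluster led by Neto1 and Gsg1l2 had 224 CPM of Gabrr2 and 9.35 CPM of Gabrr3, and the cluster led by A730046J19Rik and Grik1 had 48.5 and 372 CPM. The share of Gabrr2 in the summed Gabrr2 and Gabrr3 UMIs, used here to order clusters and not to compare subunit amounts, was 99.0% in the Hs3st4 cluster (95% exact binomial interval 98.2% to 99.6%, counting error only) and 3.12% in the Areg cluster (1.67% to 5.27%). In the single libraries it was 97.2% to 99.6% in the former and 0% to 11.4% in the latter, so the 2 clusters did not overlap in any library. Intermediate clusters existed, with 76.1% in the ON cluster led by Cck and Cnmd, 61.4% in the OFF cluster led by Neto1 and Cpne9 and 45.7% in the OFF cluster led by Otor and Nnat.

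Over the 13 cone bipolar clusters the log2(CPM + 1) values of Gabrr2 and Gabrr3 had a Pearson r of -0.69 and a Spearman rho of -0.70, as a description, since the clusters share libraries. Gabrr1 had an r of 0.00 with Gabrr2 and 0.27 with Gabrr3 over these clusters. In single ON cone bipolar cells thinned to 5000 UMIs (689 of 908 cells, 219 being too shallow), 13.2% had UMIs of both Gabrr2 and Gabrr3, and the product of the 2 single shares was 24.4%. In the Cck cluster, where both genes were present, 34.1% of 176 cells had both and the product was 31.1%. The joint share was thus below the product over the whole ON class and not inside that cluster.

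**Figure D2:**
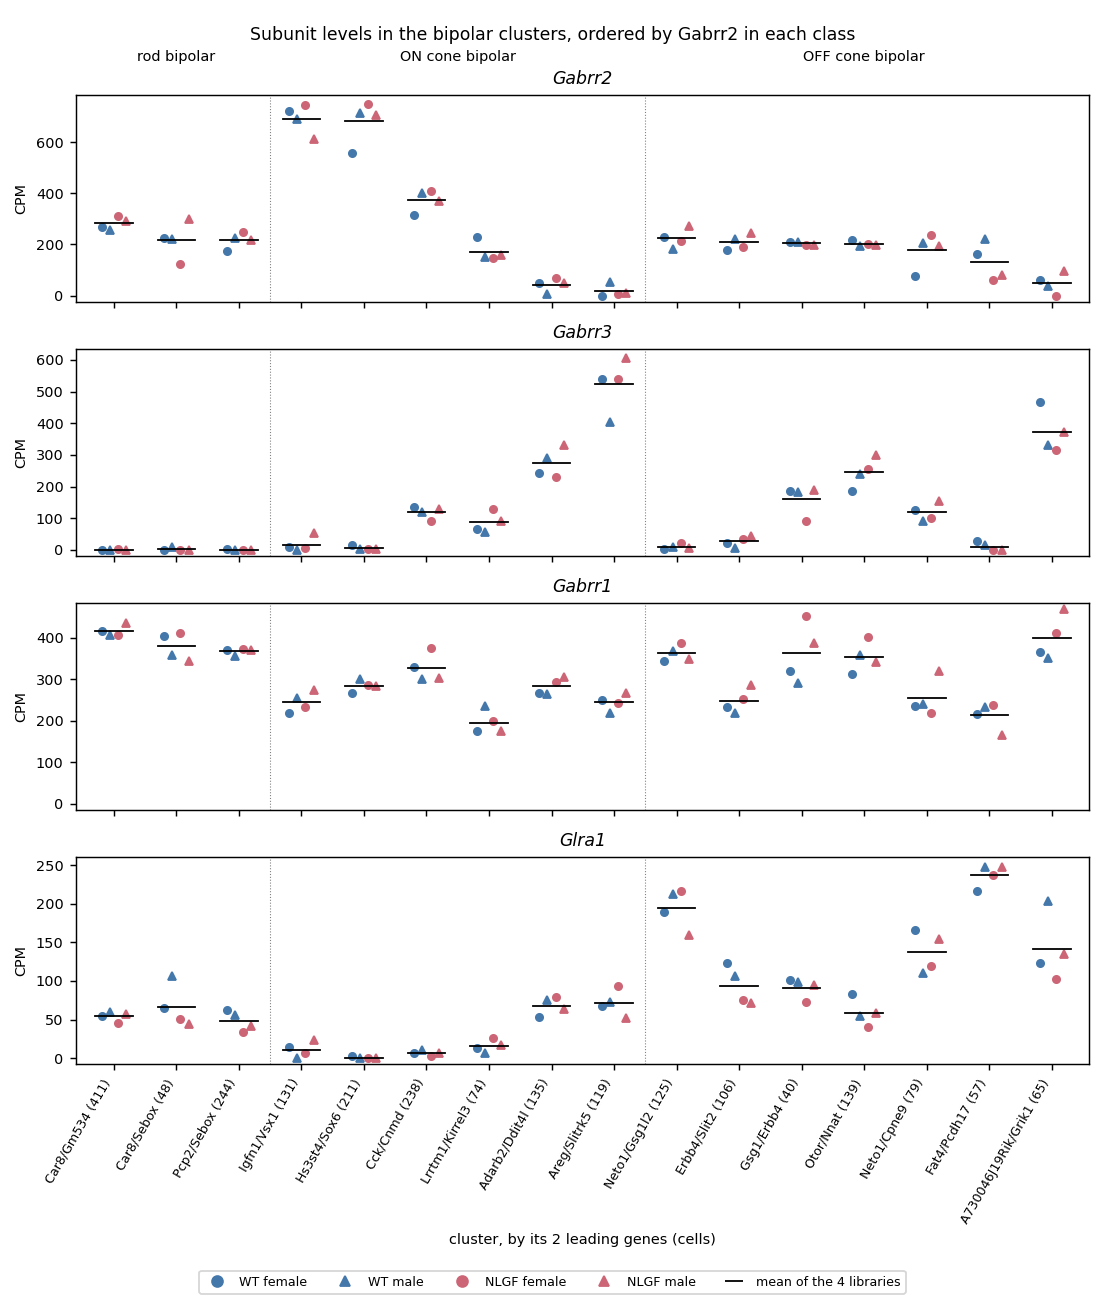
Levels of Gabrr2, Gabrr3, Gabrr1 and Glra1 (CPM, linear axes) in the 16 bipolar clusters, each named by its 2 leading genes with its number of cells; points are libraries and bars means of the 4 libraries, and within each class clusters are ordered by falling Gabrr2. Gabrr3 is highest, at 522.5 CPM, where Gabrr2 is lowest among the ON clusters, and Gabrr1 stays between 196 and 416 CPM in all 16 clusters.

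Low levels outside bipolar cells were set against those of other bipolar transcripts, because free RNA in the droplets adds UMIs of abundant genes to every cell. In rods Gabrr1 stood at 1.81% of its mean bipolar level. The bipolar genes Pcp2, Trpm1, Isl1 and Grm6 stood at 2.46%, 1.59%, 1.51% and 2.30%, so Gabrr1 lay within the range of those 4 genes. Gabrr2 in rods stood at 4.74% (4.15% to 5.45% over the libraries), above the highest library value of those 4 genes (3.06%), at 13.3 ± 1.83 CPM (SD, n = 4) from 436 UMIs in 25114 cells. Among genes of amacrine cells, Slc6a9 stood at 4.15% of its amacrine level in rods, and Pax6, Tfap2b and Gad1 at 2.27%, 1.37% and 0.819%. The Gabrr2 level ran from 30.01 CPM in the rod cluster of shallowest cells to 6.15 CPM in the deepest one, and Trpm1 from 64.2 to 19.3 CPM. The part of free RNA in the rod levels of Gabrr1 and Gabrr2 was not tested.

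Cones held Gabrr3. Their libraries had 30.1, 28.4, 19.3 and 37.9 CPM, 31.8% of the mean bipolar level, while Pcp2 and Trpm1 stood at 0.694% and 1.30% of theirs in the same cells. Gabrr1 and Gabrr2 in cones, at 2.28% and 2.52% of their bipolar levels, stood above the means of those markers. Their library ranges (0.834% to 4.05% and 0.482% to 4.37%) overlapped that of Trpm1 (0.308% to 2.79%). Gabrr3 UMIs were found in 15.9% of cones, and 9.08% of all Gabrr3 UMIs came from cones.

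Glra1, the alpha subunit of fast glycine receptors, was highest in OFF cone bipolar cells. The libraries had 148, 133, 120 and 122 CPM there, 58.0, 62.3, 42.1 and 50.4 CPM in rod bipolar cells and 24.2, 22.1, 29.7 and 24.5 CPM in ON cone bipolar cells. OFF cone bipolar cells lay above all other classes in each library and held 50.5% of the Glra1 UMIs. GABAergic amacrine cells, with 46.7, 41.9, 10.7 and 18.9 CPM, overlapped both the rod and the ON cone bipolar classes.

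Among the OFF clusters Glra1 ran from 59.1 CPM (led by Otor and Nnat) to 194 CPM (Neto1 and Gsg1l2) and 237.5 CPM (Fat4 and Pcdh17). The ON clusters divided into a pair with 71.4 and 67.9 CPM, which were the 2 clusters high in Gabrr3 (led by Areg and by Adarb2), and 4 others with 0.657 to 15.8 CPM. In the amacrine class the UMIs came mainly from the 15 cells of a cluster led by Igfbp2 and Syt7, with 257, 361, 152 and 208 CPM, and no other GABAergic cluster had a mean above 7.55 CPM.

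Glra2 and Glra3, whose alpha subunits form slower glycine receptors, were highest in the amacrine classes among the named classes. Glra2 had 98.6, 78.8, 77.6 and 75.0 CPM in glycinergic and 49.5, 55.8, 50.9 and 48.3 CPM in GABAergic amacrine cells, and the ranges did not overlap. No Glra2 UMI was seen in 703 rod bipolar cells. Glra3 was ordered the other way, with 206, 204, 263 and 207 CPM in GABAergic and 87.8, 76.2, 167 and 144 CPM in glycinergic amacrine cells. Together the amacrine classes held 50.8% (GABAergic) and 38.3% (glycinergic) of the Glra3 UMIs. The 25 retinal ganglion cells had 13.6 ± 13.7 CPM of Glra2 and 38.4 ± 27.7 CPM of Glra3 (SD, n = 4), from 14 and 34 UMIs.

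The 13 amacrine clusters differed far more than the 2 classes. Glra2 was highest, with 215, 243, 183.5 and 195 CPM, in the glycinergic cluster led by Nhlh2 and Ebf3, where Glra3 had 8.86 to 18.1 CPM. Glra3 reached 627 CPM in the GABAergic cluster led by Pantr1 and Pou3f3 and 519 CPM in the one led by Npy and Bhlhe22, where Glra2 had 8.72 and 23.7 CPM. Both genes were present in the cluster led by A930001A20Rik and Slc17a8, the gene of the vesicular glutamate transporter VGLUT3, with 413 CPM of Glra3 and 105 CPM of Glra2. Glra3 had 0 UMIs in the 93 cells of the glycinergic cluster led by Grik2 and Crabp1. Its highest level of all, 1060 CPM, was in 11 cells led by Mafa, a transcription factor gene, and by Glra3 itself.

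**Figure D3:**
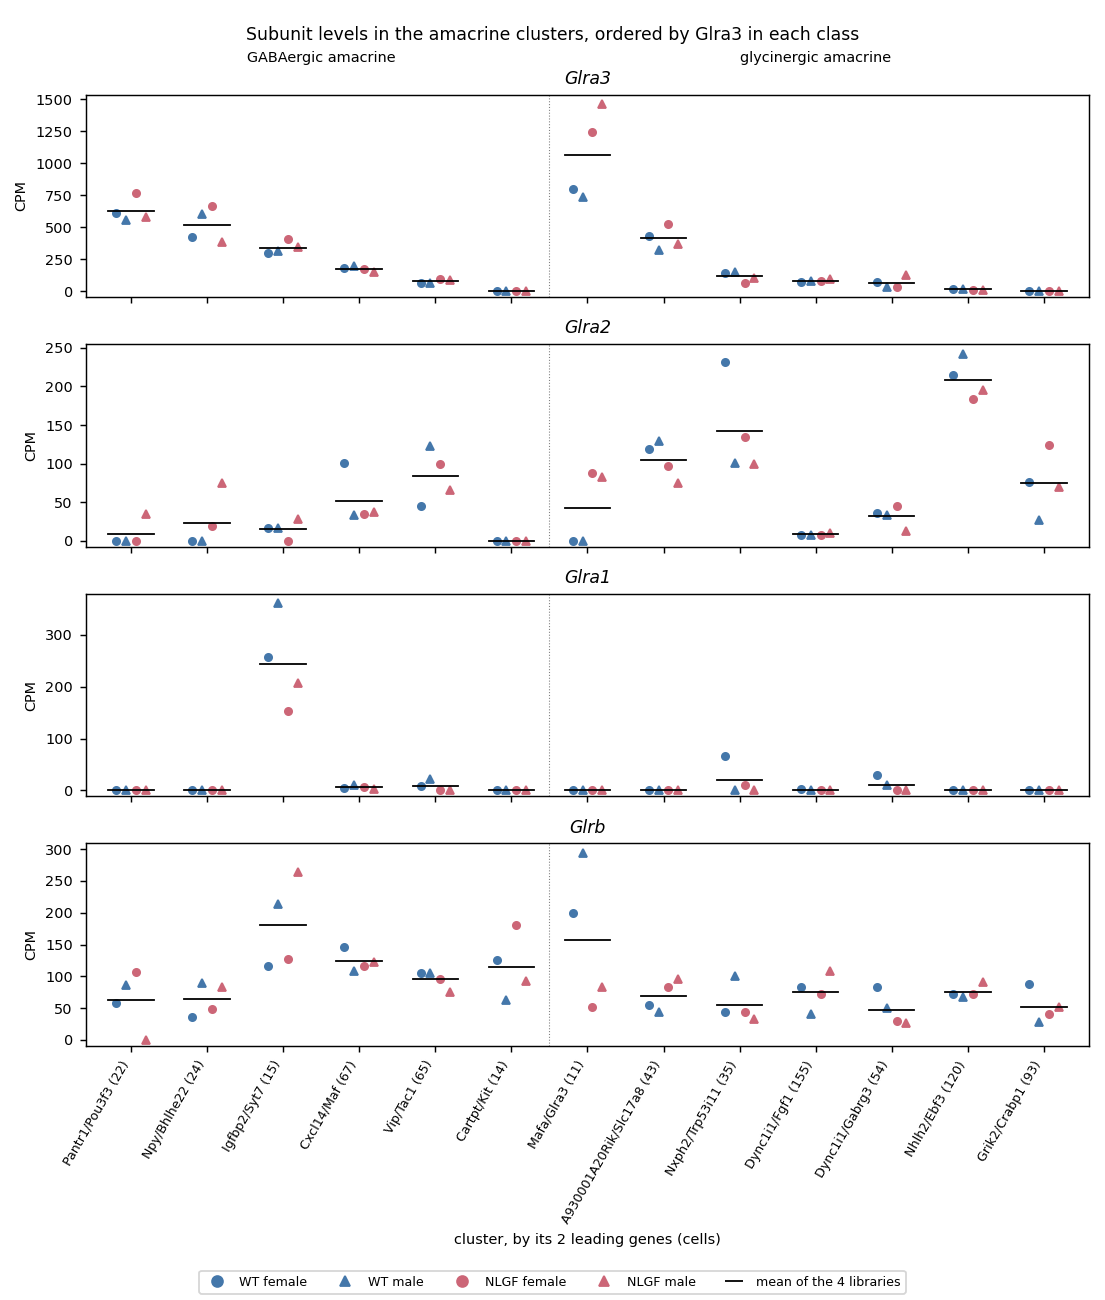
Levels of Glra3, Glra2, Glra1 and Glrb (CPM, linear axes) in the 13 amacrine clusters, each named by its 2 leading genes with its number of cells; points are libraries, bars means over the libraries with cells, and within each class clusters are ordered by falling Glra3. Glra3 runs from 0 to 1060 CPM, Glra2 is highest in the Nhlh2 and Ebf3 cluster, Glra1 stands out in the 15 cells led by Igfbp2, and Glrb has a mean of at least 47.7 CPM in every cluster.

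Glrb, the beta subunit that links the receptor to gephyrin, was the most widely spread of the 7 genes. It had 111, 112, 101 and 106 CPM in GABAergic amacrine, 76.3, 54.3, 64.1 and 87.6 CPM in glycinergic amacrine and 46.6, 58.1, 54.0 and 67.1 CPM in OFF cone bipolar cells. ON cone bipolar cells had 31.9 ± 6.57 CPM and rod bipolar cells 13.6 ± 3.46 CPM (SD, n = 4), and each lay apart from the class above it. In the OFF cluster led by Neto1 and Gsg1l2, one of those high in Glra1, Glrb had 102 CPM, and in the Fat4 cluster, the highest in Glra1, it had 29.1 CPM. The 25 retinal ganglion cells had 122, 190, 124 and 178 CPM, and the 54 horizontal cells had 61.8 ± 11.2 CPM (SD, n = 4).

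Müller glia, the radial glia of the retina, held Glrb with few or no UMIs of Glra1, Glra2 and Glra3. Their libraries had 71.3, 80.2, 97.2 and 112 CPM, from 593 UMIs, and the class supplied 25.2% of all Glrb UMIs. This was 104% of the mean amacrine level, against 0.401% for Gad1 and 0.288% for Slc6a9, which make GABA and take up glycine in amacrine cells. Glra2 and Glra3 had 0 UMIs in the 634 Müller cells, which allows at most 2.74 CPM of each in the shallowest library (3 counts, counting error only), and Glra1 had 5 UMIs. Microglia had 0 UMIs of Glrb, in 79 cells with a median of 1566 UMIs. There 1 UMI of Glra2 in 1 library made 12.6 CPM, so a low level of Glrb could have been missed.

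Genes with the most similar pattern were sought over the 30 clusters with at least 10 cells in every library, as Pearson r of log2(CPM + 1), among 12733 genes of at least 20 CPM in some cluster. Smaller clusters were not used, so the highest level was 177 CPM for Glra3, 194 CPM for Glra1 and 124 CPM for Glrb, and the amacrine clusters highest in Glra3 and the Igfbp2 and Fat4 clusters took no part. For Gabrr1 these were Nrn1l (r = 0.96), Lrtm1 (0.92) and Frmd3 (0.91). For Gabrr2 they were Trpm1 (0.92), the cation channel of the ON bipolar light response, Gng13 (0.90), a G protein subunit of the same cells, and Lrtm1 (0.89). Gabrr3 was nearest to Gsg1 (0.89), Pgc (0.86) and Scgn (0.86), a calcium-binding protein of cone bipolar cells. Glra1 was near to Glis1 (0.87) and Mmel1 (0.83), Glra2 to Resp18 (0.94), Nrsn2 (0.94) and Nhlh2 (0.91), Glra3 to Gm13629 (0.91), D430041D05Rik (0.89) and Rbfox1 (0.88), and Glrb to Gpm6a (0.93), Fhl1 (0.93) and Adam22 (0.92). The clusters share 4 libraries, so these values are descriptions.

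The design next asked whether the subunit genes differed between NLGF and WT in each class, with summed counts of 2 libraries against 2 and edgeR's quasi-likelihood test. With filters on low counts 31 pairs of a member and a class were tested in 8 classes, and none of the members passed the filter in microglia or vascular cells (0% and 0.0958% of all genes tested there were called, and 39.3% and 35.1% did not overlap between the genotypes). The test called 1 pair at an adjusted p under 0.05, 8 pairs had an unadjusted p under 0.05 (5.01% to 11.9% of all genes in these classes), and DESeq2 called 0 (0 to 42 of all genes in a class). Over all genes tested the share called was 0.00808% in rods, 0% in cones and in rod bipolar cells, 0.058% in ON and 0.0677% in OFF cone bipolar cells, 0.0112% in GABAergic and 0.428% in glycinergic amacrine cells, and 1.64% in Müller glia. Overlap, here and in the shares given for microglia and vascular cells, was judged on CPM values scaled by the TMM factors of the fit. On that scale the NLGF and WT libraries did not overlap for 1 of 5 members in rods (39.4% of all genes tested), 0 of 3 in cones (35.4%), 2 of 4 in rod bipolar (35.8%), 1 of 5 in ON cone bipolar (36.1%), 3 of 5 in OFF cone bipolar (34.4%), 2 of 4 in GABAergic amacrine (34.2%), 3 of 4 in glycinergic amacrine cells (33.9%) and for the 1 member tested in Müller glia (41.8%). The plain CPM levels given above differ in places. On them neither Gabrr1 nor Glra1 overlapped in ON cone bipolar cells, and Glra3 did not in GABAergic amacrine cells. No share of all genes was taken on the plain scale. The p-values measure the spread between 2 animals of each genotype, 1 of each sex.

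**Figure D4:**
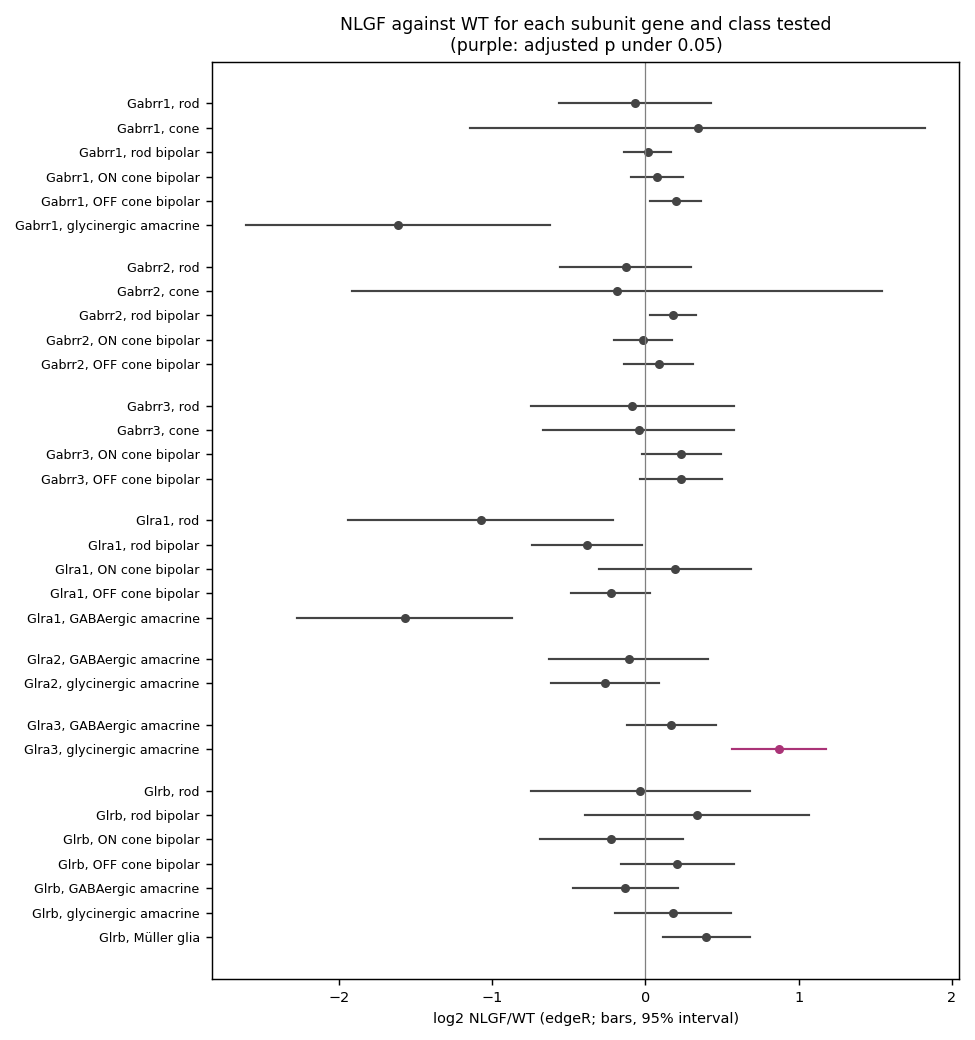
Difference between NLGF and WT (horizontal axis, log2 NLGF/WT from edgeR) for the 31 tested pairs of a subunit gene and a class; points are estimates and bars 95% intervals of the fit, with the 1 pair of adjusted p under 0.05 in purple. Glra3 in glycinergic amacrine cells lies at 0.87, the rho genes in bipolar cells lie between -0.02 and 0.23, and the cone and rod pairs have wider intervals.

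Glra3 in glycinergic amacrine cells was the pair called. Its levels were 87.8 and 76.2 CPM in the WT female and male and 167 and 144 CPM in the NLGF pair, so the genotypes did not overlap. The log2 change was 0.87 ± 0.15 (SE; 95% interval 0.57 to 1.18), with an edgeR adjusted p of 0.000105. The call was lost with DESeq2 (adjusted p = 0.29) and without the NLGF female (adjusted p = 0.0623), and was kept with each other library left out.

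Much of the difference was carried by the 11 cells of the cluster led by Mafa and Glra3. That cluster had 1, 1, 5 and 4 cells by library, with 4, 10, 71 and 88 Glra3 UMIs, and it supplied 48.0% and 44.9% of the Glra3 UMIs of the class in the NLGF libraries against 3.28% and 16.9% in the WT libraries. Without it the log2 change of Glra3 was 0.17, with an edgeR adjusted p of 1.00. Leaving out instead the 54 cells of the cluster led by Dync1i1 and Gabrg3 also ended the call, with a log2 change of 0.80 and an adjusted p of 0.0723. Both of these alternatives were chosen after the values were seen. In the cluster led by Dync1i1 and Fgf1, the largest of the class with 155 cells, Glra3 had 71.7, 82.8, 77.1 and 94.2 CPM, and in the Slc17a8 cluster 429, 324, 528 and 372 CPM, and the genotypes overlapped in both. The Mafa-led cells were placed in the class by a small margin of their markers (mean z-score 0.172 for glycinergic and -0.246 for GABAergic markers). The margin of the Slc17a8 cluster was smaller still (-0.024 and -0.304). With doublets kept, a cluster of 28 cells led by A930001A20Rik was named GABAergic amacrine.

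**Figure D5:**
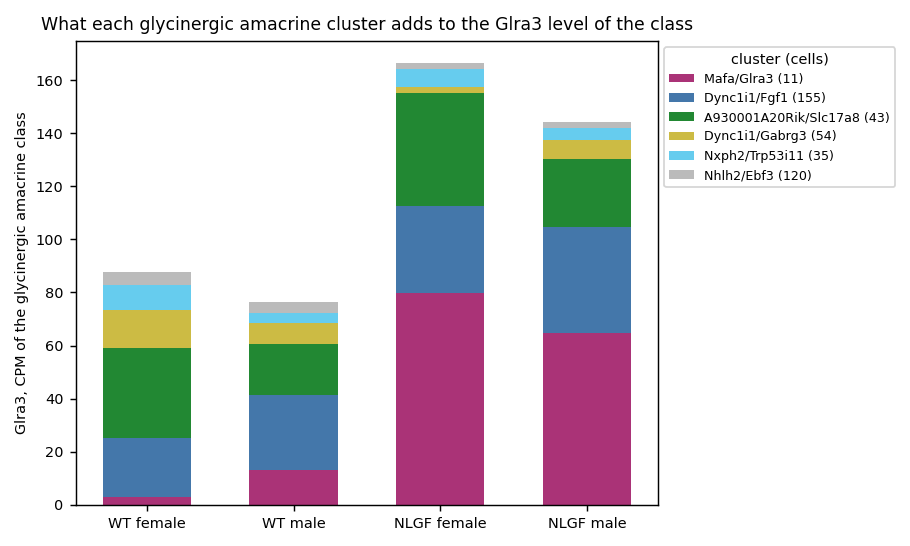
Glra3 level of the glycinergic amacrine class in each library (bar height, CPM from 0), divided by the cluster that the UMIs came from; the cluster with no Glra3 UMI is not drawn. The part of the 11 Mafa-led cells is 2.88 and 12.9 CPM in the WT libraries and 79.9 and 64.7 CPM in the NLGF libraries.

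In GABAergic amacrine cells Glra3 had 206, 204, 263 and 207 CPM, with a log2 change of 0.17 (95% interval -0.12 to 0.46; edgeR adjusted p = 0.970). The change in glycinergic cells minus that in GABAergic cells was 0.72 ± 0.20 (SE), with an adjusted p of 0.229 in an edgeR fit with the library as a block, so the classes were not shown to differ. That fit called 8 of 10072 genes, or 0.0794%.

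Glra1 was lower in both NLGF libraries in several classes, and passed the test in none. In GABAergic amacrine cells, where it had 34, 30, 8 and 16 UMIs, the log2 change was -1.57 (95% interval -2.27 to -0.87) with an edgeR adjusted p of 0.207. Of these, 31, 22, 6 and 15 UMIs came from the Igfbp2 cluster, which had 6, 3, 2 and 4 cells, and without it Glra1 no longer passed the filter on low counts. The pair was called without the WT male (adjusted p = 0.0264), without the NLGF male (0.00602) and with no filter on low counts (0.00526), while over the other alternatives the adjusted p ran from 0.0768 to 1.00. In OFF cone bipolar cells, which hold most of the gene, the log2 change was -0.23 (-0.48 to 0.03), in rod bipolar cells -0.38 (-0.74 to -0.02) and in rods, at 54 UMIs, -1.07 (-1.94 to -0.21), with edgeR adjusted p-values of 0.942, 0.775 and 0.585. The rod level of Glra1 was 2.42% of its bipolar level, against 2.46%, 2.30%, 1.59% and 1.51% for Pcp2, Grm6, Trpm1 and Isl1. The part of free RNA in that level was not tested. In ON cone bipolar cells the log2 change of Glra1 was 0.19 (-0.30 to 0.69).

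The rho genes differed little in the cells that use them. Gabrr1 in rod bipolar cells had a log2 change of 0.01 (95% interval -0.14 to 0.17). Gabrr2 there was higher in both NLGF libraries, at 0.18 (0.03 to 0.33), with an edgeR adjusted p of 0.770. Gabrr1 in OFF cone bipolar cells was at 0.20 (0.03 to 0.37, adjusted p = 0.867), and Gabrr3 at 0.23 in both cone bipolar classes (adjusted p of 0.772 in ON and 0.942 in OFF cells). Gabrr2 in ON cone bipolar cells was at -0.02 (-0.20 to 0.17).

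Outside bipolar cells, Gabrr1 in glycinergic amacrine cells had 26, 10, 6 and 6 UMIs, with a log2 change of -1.62 (edgeR adjusted p = 0.218). The bipolar marker Trpm1 moved with it, at 28.1 and 74.9 CPM in the WT and 3.38 and 3.68 CPM in the NLGF libraries of that class, and its part in the difference was not tested. Within the class 32 and 55 of the WT Trpm1 UMIs lay in the cluster led by Dync1i1 and Gabrg3. Without that cluster, which held 15 and 7 of the WT Gabrr1 UMIs, Gabrr1 no longer passed the filter on low counts. Glra2 had log2 changes of -0.27 (95% interval -0.62 to 0.09) in glycinergic and -0.11 (-0.63 to 0.41) in GABAergic amacrine cells.

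Glrb in Müller glia was higher in both NLGF libraries, by a log2 change of 0.40 (95% interval 0.11 to 0.68), with an edgeR adjusted p of 0.182. Under the alternatives the change stayed between 0.30 and 0.51, with adjusted p-values from 0.0592 to 1.00. In amacrine and bipolar cells its log2 changes ran from -0.22 (ON cone bipolar) to 0.34 (rod bipolar), with adjusted p-values from 0.911 upward.

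A list of partners of these receptors held 20 genes, among them gephyrin (Gphn), which anchors the receptors, the transporters of glycine (Slc6a9, Slc6a5) and of GABA (Slc6a11), the vesicular transporter Slc32a1, the GABA-making enzymes Gad1 and Gad2 and the chloride transporters Slc12a5 and Slc12a2. They gave 120 pairs tested, of which edgeR called 0 and DESeq2 0, and 14 had an unadjusted p under 0.05, as had 5% to 11.9% of all genes tested in the single classes. In glycinergic amacrine cells 17 were tested, with 8 above and 9 below 0.

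Summed over all kept cells, the test again called 0 of 7 members, with 0.031% of 16150 genes called by edgeR, 2 members at an unadjusted p under 0.05 and 0 called by DESeq2. Those 2 were Glra3, with 15.7, 13.3, 21.2 and 19.8 CPM and a log2 change of 0.50 (adjusted p = 0.314), and Glra1, with 22.1, 22.0, 13.2 and 17.2 CPM and a log2 change of -0.53 (adjusted p = 0.326). These CPM values are scaled by the TMM factors of the fit. With no filter on low counts both passed, at edgeR adjusted p-values of 0.0173 and 0.0157. Of the 291, 269, 364 and 403 Glra3 UMIs in these sums, 4, 10, 71 and 88 came from the 11 Mafa-led cells. The sums were not tested without those cells. OFF cone bipolar cells, the main source of Glra1, numbered 176, 183, 110 and 142, and in such sums fewer cells of a type and less RNA per cell cannot be told apart. The NLGF and WT libraries did not overlap for 3 of 7 members, and for 42% of all genes.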

How the data were processed

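The deposited values are whole UMI counts, in 1 matrix of genes and barcodes for each library. Per the file headers they came from Cell Ranger 6.1.1. The submitters' processing notes list Cell Ranger 3.1.0, STAR and mm10 (GRCm38). Whether the authors counted introns or used strand is not given in those sources. Libraries held 8060 to 9068 barcodes with median depths of 945.5 to 1168.5 UMIs, so shares and low levels are limited by counting error. Intervals of shares and limits from a count of 0 cover counting error only, and intervals of log2 changes come from the edgeR fit over libraries.

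Cells needed 300 genes or more and no more than 20% of UMIs from mitochondrial genes. Scrublet's own threshold marked 2 cells, so the 6% of highest score in each library were removed. Cells were clustered with scanpy 1.11.5 (2000 variable genes without the members and sex-linked genes, 30 components, 20 neighbours, Leiden resolution 1), and inner neurons again in a second step. Clusters were named by marker lists, rod bipolar by rod-specific markers, ON or OFF cone bipolar by Isl1 against Grik1, and amacrine cells by GABAergic against glycinergic markers, rules set after seeing the data. Endothelial cells and pericytes were joined as vascular.

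Counts were summed by class and library, for classes of at least 10 cells in every library, and NLGF was tested against WT with edgeR 4.0.16 (filterByExpr, TMM, quasi-likelihood test, Benjamini-Hochberg over all genes of the class). Checks on simulated data were also run, and their outcome is not reported here. DESeq2 1.42.0, other filters, scalings, clusterings, a sex block and libraries left out were alternatives. The named genes were the 7 members, list genes past the threshold and, for each member, the 3 most similar genes, and some genes that this rule names, with a second list of receptor genes and its 1 edgeR call, are not reported here. The members and lists were chosen with earlier results of these data known. Sequences came from RefSeq (GRCm38.p6), where 6 of the 7 members had a promoter entry, and 32158 of 32285 gene IDs matched GENCODE M21.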

Additional observations from a re-analysis of the deposited data

Results flagged for a closer look

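Clusters that were given no class, and so entered no comparison, held subunit transcripts. The 180 cells of a cluster with GABAergic amacrine markers, Syt7 among its leading genes and a median of 870 UMIs had 142 ± 112 CPM of Glra3 (SD, n = 4; 37.4 to 275 CPM, 41 UMIs). The 83 cells led by Reln and Lhx1, with a median of 721 UMIs, had 178 ± 108 CPM of Gabrr1 from 12 UMIs and 167 ± 99.2 CPM of Gabrr2 from 11 UMIs. The 82 cells led by Slc17a6 and Nell2, with ganglion cell markers, had 153 ± 55.6 CPM of Glrb from 38 UMIs. Effects of NLGF by sex rest on 1 library each and were not compared.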

How the results depend on the processing

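Horizontal and retinal ganglion cells were left out of this ranking, although the 25 retinal ganglion cells had the highest mean level of Glrb (153 CPM). Among the other classes, the highest class of each member was the same with doublets kept and with the members among the variable genes. The highest class was also the same at Leiden resolutions of 0.6 and 1.5 and with means of cell CPM. By the share of cells with a UMI after thinning it was the same for 5 of 7, the exceptions being Gabrr3 (OFF cone bipolar) and Glrb (Müller glia), and for 6 of 7 without the clusters led by Areg and by Adarb2, the exception being Gabrr3 (OFF cone bipolar). The number of member and class pairs called was 1, and 0 with DESeq2, 2 with no filter on low counts, 0 to 2 with 1 library left out, 0 without the cluster led by Mafa and 0 without that led by Dync1i1 and Gabrg3. The genes called over all classes numbered 240, and 57 with DESeq2, 411 with no filter, 586 with sex as a block, 150 with counts thinned to the smallest library and 352 to 1519 with 1 library left out. Over all kept cells 0 members were called, and 2 with no filter.

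The sign of 15 member results, none beyond 0.34 on the log2 scale, turned when 1 library was left out, and the cause was not tested. Their ranges were, for Gabrr1, -0.20 to 0.041 (rod), -1.16 to 1.22 (cone) and -0.0054 to 0.030 (rod bipolar). For Gabrr2 they were -0.37 to 0.16 (rod), -2.32 to 1.14 (cone), -0.15 to 0.14 (ON cone bipolar), -0.030 to 0.17 (OFF cone bipolar) and -0.27 to 0.038 (all cells), and for Gabrr3 -0.59 to 0.34 (cone) and -0.27 to 0.19 (all cells). For Glra2 the range was -0.42 to 0.23 (all cells), for Glra3 -0.0039 to 0.33 (GABAergic amacrine) and for Glrb -0.15 to 0.085 (rod), -0.65 to 0.052 (ON cone bipolar) and -0.086 to 0.48 (glycinergic amacrine). With doublets kept, Glrb in rods was at 0.14 and Gabrr1 in cones at -0.032. With thinned counts, Gabrr1 in rod bipolar cells was at -0.0022, Glrb in OFF cone bipolar cells at -0.031 and Gabrr3 over all cells at 0.0012. The labels give sexes and no replicate numbers, so libraries could be paired by sex only. With sex as a block 1 pair of a member and a class was called, and 0 members over all kept cells.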
